A study of Sus scrofa with 6 samples.

Results

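The 10 genes described here encode the muscle atrophy ubiquitin ligases FBXO32, TRIM63 and FBXO30, the transcription factors FOXO1, FOXO3, FOXO4 and KLF15, the secreted growth inhibitor MSTN (myostatin) and the stress and cell cycle regulators GADD45A and CDKN1A. They were taken by symbol from the expression table of the longissimus dorsi (LD), the long back muscle used to grade pork, in which all 10 were found among 25878 listed genes. RNA was sequenced in 1 library per pig from 6 Nanyang Black pigs, 3 of the high-fat deposition (HF) and 3 of the low-fat deposition (LF) group. The labels give an age of 180 days for every pig, whereas the study's phenotype table gives a higher one. The labels name no treatment or transgene, and the groups were formed by the study from backfat, intramuscular fat and fatty acid traits of female siblings kept in a pen.

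In muscle, proteins marked with ubiquitin are broken down by the proteasome, and a small set of ligases chooses which proteins are marked during fasting, disuse or glucocorticoid excess. FBXO32 (atrogin-1) is the substrate-binding F-box subunit of an SCF ligase, TRIM63 (MuRF1) is a RING ligase of the sarcomere, and FBXO30 (MUSA1 in mouse) is a further F-box protein linked to atrophy after loss of nerve supply. FOXO factors switch on FBXO32 and TRIM63 when insulin and AKT signalling is low, KLF15 acts with the glucocorticoid receptor on the same genes, and MSTN restrains muscle growth through activin receptors and SMAD proteins.

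Expression was given as FPKM, a measure scaled to transcript length and to the mapped fragments of each library, so that levels can be compared between genes per length. Groups were compared with limma on log2(FPKM + 0.1) over the 11136 genes that averaged 0.5 FPKM or more in the 6 pigs, and genes under an adjusted p of 0.05 (Benjamini-Hochberg) counted as called. All 10 genes passed that minimum. The values hold no read counts, so no counting interval is given, and errors below are the SD between pigs or the 95% interval of the fitted log2 fold change, HF over LF. A fold change on this scale slightly understates the change of low genes. In whole muscle, fewer cells of a type and less RNA per cell cannot be told apart.

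Some very abundant genes were listed at 0 in some of the libraries only. The mitochondrial genes COX1, COX3, ATP6 and ATP8 read 0 FPKM in LF02, against at least 30386 FPKM in every other pig, and ACTA1, the skeletal muscle actin, is listed at 0 in HF01 and HF03. An exact 0 in this table therefore need not mean a silent gene, and none of the 10 genes is listed at 0 in any pig. Muscle identity was clear in both groups: the 10 of 14 skeletal muscle markers with a listed symbol summed to 18092 to 21510 FPKM in HF pigs and 20826 to 28111 FPKM in LF pigs, and none was listed at 0.

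Averaged over the 6 pigs, FBXO32 was the most abundant of the 10 at 66.7 FPKM, above 93.7% of the genes tested. CDKN1A (39.6 FPKM), TRIM63 (39.1) and FBXO30 (34.3) followed, then FOXO4 (15.6), MSTN (10.2), FOXO3 (9.42), KLF15 (8.31), GADD45A (5.30) and FOXO1 (4.62), the last at the 50.2nd percentile of genes tested. The ranges of neighbours in this order overlapped over the 6 pigs, except that FBXO30, with a lowest value of 24.6 FPKM, lay above FOXO4, with a highest value of 20.7. The ligases and CDKN1A thus formed the upper part and the transcription factors, MSTN and GADD45A the lower part of the order.

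Of the 10 genes, 8 had a lower and 2 a higher fitted level in HF than in LF muscle, and limma called 0 of them over all genes. Over all genes tested 0.0718% were called, 0.0359% lower in HF, and 51.9% had a negative log2 fold change. At an unadjusted p under 0.05, TRIM63 and GADD45A were lower and 0 were higher, 2 of 10 against a background of 13.8% lower and 11.0% higher. Only TRIM63 had groups that did not overlap, with HF lower, 1 of 10 against 17.1% of all genes, and for 0 of 10 with HF higher, against 12.8%. The median log2 fold change of the 10 genes was -0.29, beside -0.03 for all genes tested. The shares at an unadjusted p under 0.05 and without overlap are near the background. The share of negative genes is above that of all genes tested, but with 10 genes a difference of 1 gene moves a share by much. Direction also went with level. Of genes averaging at least 5 FPKM, which hold 9 of the 10, only 31.9% were positive, at a median of -0.21. Of those 9 genes, 7 were negative, at a median of -0.27, which is nearer to that background.

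**Figure D1:**
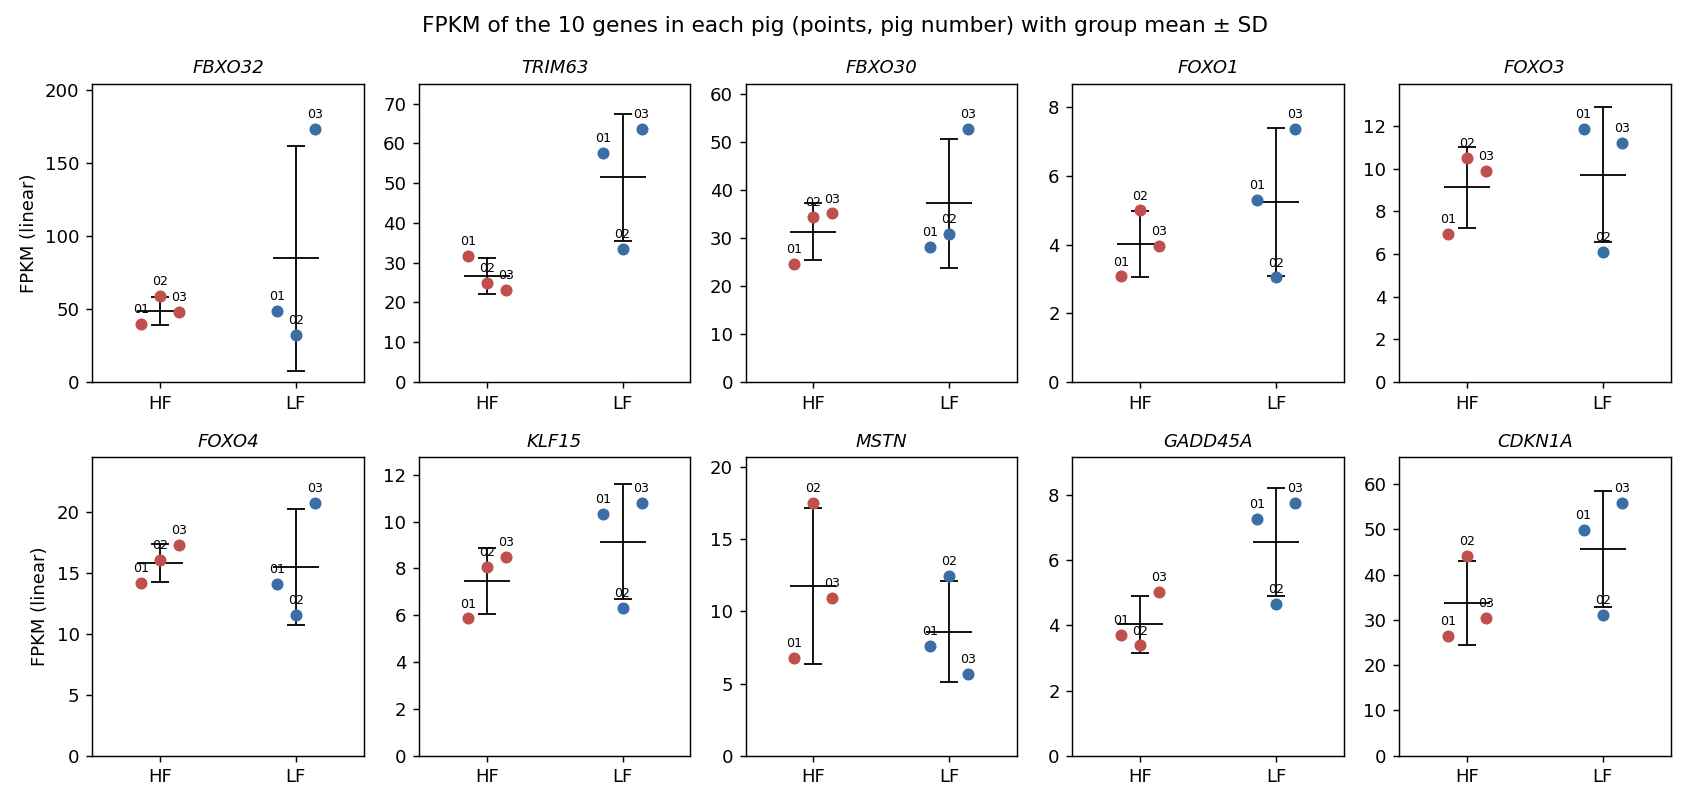
FPKM of each of the 10 genes (vertical axis, linear from 0, one scale per panel) in 3 HF pigs (left, red) and 3 LF pigs (right, blue), with the pig number beside each point and the group mean ± SD in black. TRIM63 is the only panel in which all HF points lie below all LF points, and FBXO32 in LF03 stands at 173 FPKM, far above the other 5 pigs.

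The TRIM63 gene spans 83488972 to 83508007 of chromosome 6 in the Sscrofa11.1 assembly, which also gives the positions below. It had 31.7, 25.0 and 23.2 FPKM in HF01 to HF03, against 57.5, 33.4 and 63.6 FPKM in LF01 to LF03. Every HF pig was below every LF pig, but LF02 was only just above HF01. The mean was 26.6 ± 4.47 FPKM in HF pigs and 51.5 ± 16.0 FPKM in LF pigs (SD, n = 3 each). The log2 fold change was -0.91 (95% interval -1.54 to -0.27), and the gene was not called by limma (adjusted p = 0.113). Without LF02 it was -1.19 (limma, adjusted p = 0.0493), which would be called, beside 124 of 11157 genes called lower in that fit. Under quantile normalisation its groups overlapped, at -0.66 (limma, adjusted p = 0.194).

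FBXO32, on chromosome 4 from 15895091 to 15930934, did not follow TRIM63 in all pigs. Its level was 39.5, 58.7 and 48.1 FPKM in HF01 to HF03, against 48.6, 32.4 and 173 FPKM in LF01 to LF03. LF03 was high and the other 5 pigs overlapped, so that the highest LF value was 5.35 times the lowest, compared with 1.49 times within HF. The means were 48.8 ± 9.60 FPKM in HF pigs and 84.7 ± 77.0 FPKM in LF pigs (SD, n = 3 each). The log2 fold change of -0.43 (95% interval -1.67 to 0.82; limma, adjusted p = 0.661) turned to 0.28 without LF03.

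The balance of the pair differed between pigs. FBXO32 exceeded TRIM63 in 3 of 3 HF pigs, by 1.25, 2.35 and 2.07 times in HF01 to HF03. In LF01 and LF02 FBXO32 was below TRIM63, with ratios of 0.844 and 0.969, whereas in LF03 the ratio was 2.72. The HF and LF ratios overlapped.

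FBXO30 has the longest listed span of the 10 genes, 268680 bp on chromosome 1 from 19755719 to 20024398, compared with 21390 bp for its RefSeq model on the same assembly. Listed and RefSeq spans also differed for other genes, among them CDKN1A (2818 and 8996 bp) and MSTN (8363 and 4915 bp). FPKM is scaled to transcript length, so a span alone does not show whether the scaling differs. Its level was 24.6, 34.4 and 35.2 FPKM in HF01 to HF03, against 28.1, 30.9 and 52.8 FPKM in LF01 to LF03. As for FBXO32, LF03 was the highest and the other pigs overlapped. The log2 fold change was -0.21 (95% interval -0.86 to 0.44; limma, adjusted p = 0.684) and turned to 0.07 without LF03 and to 0.06 under quantile normalisation.

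Among the FOXO factors the order of levels was the same in 6 of 6 pigs, FOXO4 above FOXO3 above FOXO1. FOXO1, which drives the ligases and the switch to fat use in fasted muscle, lies on chromosome 11 from 15320491 to 15410500. It had 3.07, 4.99 and 3.96 FPKM in HF01 to HF03, against 5.29, 3.04 and 7.36 FPKM in LF01 to LF03. LF01 and LF03 were above every HF pig, and LF02 was below every one. HF over LF, this was a log2 fold change of -0.32 (95% interval -1.07 to 0.44; limma, adjusted p = 0.586). It was -0.65 without LF02 and -0.48 without HF02, but -0.14 without HF01 and -0.03 without LF03.

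FOXO3, on chromosome 1 from 74626671 to 74760325, is the family member best known for switching on autophagy genes in muscle. It had 6.93, 10.5 and 9.89 FPKM in HF01 to HF03, against 11.8, 6.11 and 11.2 FPKM in LF01 to LF03. As for FOXO1, LF01 and LF03 were above every HF pig and LF02 was the lowest of all, but here LF01 rather than LF03 was the highest. Its log2 fold change was -0.06 (95% interval -0.73 to 0.62; limma, adjusted p = 0.929), and it turned positive without HF01 (0.13), LF01 (0.11) or LF03 (0.07) and under quantile normalisation (0.09).

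FOXO4 lies on chromosome X from 57131724 to 57140650, and its end overlaps IL2RG, an immune receptor chain at 0.145 to 0.333 FPKM in these pigs. FOXO4 had 14.1, 16.1 and 17.3 FPKM in HF01 to HF03, against 14.1, 11.5 and 20.7 FPKM in LF01 to LF03. The HF values lay within the LF range. Its log2 fold change was 0.07 (95% interval -0.49 to 0.63; limma, adjusted p = 0.886), with -0.12 without LF02. Relative to FOXO1, FOXO4 was 4.61, 3.22 and 4.36 times as high in HF01 to HF03 and 2.67, 3.79 and 2.82 times as high in LF01 to LF03, which overlap.

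KLF15, a Krüppel-like factor induced by glucocorticoids that promotes amino acid breakdown, lies on chromosome 7 from 53877817 to 53890568. It had 5.86, 8.07 and 8.47 FPKM in HF01 to HF03, against 10.3, 6.31 and 10.8 FPKM in LF01 to LF03. LF01 and LF03 were again above every HF pig, while LF02 lay between HF01 and HF02. This gave a log2 fold change of -0.27 (95% interval -0.87 to 0.33; limma, adjusted p = 0.561). It was -0.51 without LF02, but -0.16 without LF01, -0.13 without LF03, -0.10 without HF01 and -0.15 under quantile normalisation.

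MSTN, on chromosome 15 from 94620268 to 94628630, was the only one of the 10 genes with its lowest level in LF03. It had 6.80, 17.5 and 11.0 FPKM in HF01 to HF03, against 7.62, 12.5 and 5.69 FPKM in LF01 to LF03. HF02 was the highest and the groups overlapped, with means of 11.8 ± 5.41 FPKM in HF pigs and 8.60 ± 3.51 FPKM in LF pigs (SD, n = 3 each). Its log2 fold change of 0.42 had the widest interval after FBXO32 (95% interval -0.47 to 1.31; limma, adjusted p = 0.537), so a difference of over 2-fold in favour of HF lies inside it. Single pigs moved it, to 0.08 without HF02, 0.16 without LF03, 0.72 without LF02 and 0.76 without HF01.

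GADD45A, a stress protein that remodels chromatin and gene activity in denervated mouse muscle, lies on chromosome 6 from 144938286 to 144944249. It had 3.70, 3.39 and 5.02 FPKM in HF01 to HF03, against 7.27, 4.66 and 7.76 FPKM in LF01 to LF03. Only LF02, below HF03, kept the groups from being apart. The means were 4.03 ± 0.869 FPKM in HF pigs and 6.56 ± 1.67 FPKM in LF pigs (SD, n = 3 each), and the log2 fold change was -0.67 (95% interval -1.26 to -0.09). The gene was not called by limma (adjusted p = 0.156), nor without LF02 (-0.90, adjusted p = 0.0733).

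CDKN1A (p21) holds back cyclin-dependent kinases and is one of the messages raised in wasting mouse muscle. Its place is chromosome 7, 32359454 to 32362271. Levels were 26.5, 44.1 and 30.4 FPKM in HF01 to HF03, against 49.8, 31.2 and 55.8 FPKM in LF01 to LF03. LF01 and LF03 were above all HF pigs, and LF02 was close to HF03. Its log2 fold change was -0.43 (95% interval -1.09 to 0.23; limma, adjusted p = 0.389). It was -0.68 without LF02, but -0.27 without HF01, -0.26 without LF03 and -0.15 under quantile normalisation.

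**Figure D2:**
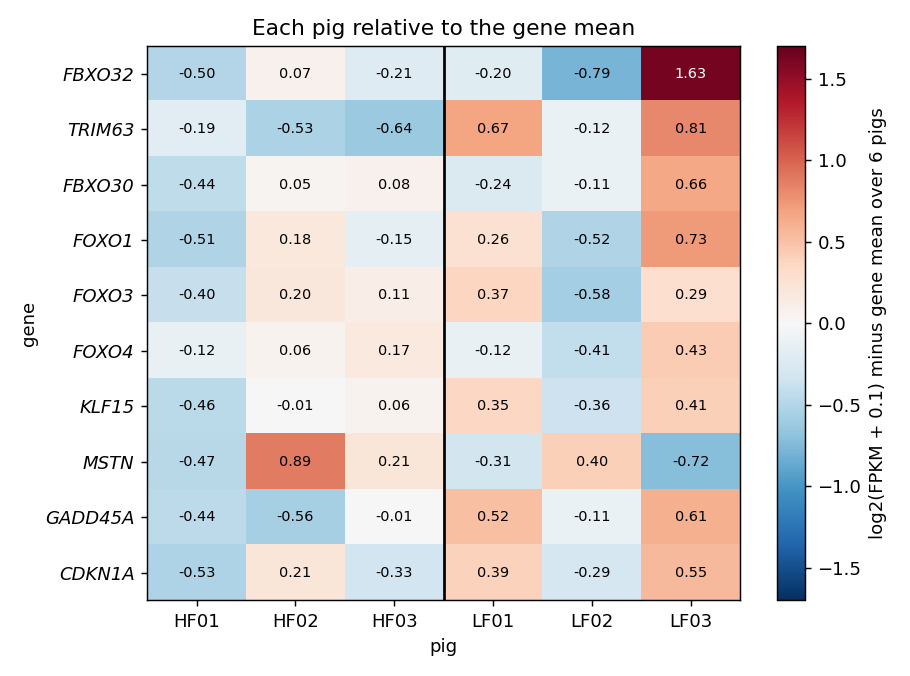
Each gene (rows) in each pig (columns, HF left and LF right of the black line) as log2(FPKM + 0.1) minus the gene's mean over the 6 pigs, in red above and blue below the mean. LF03 is above the mean for every gene but MSTN, and LF02 is below it for every gene but MSTN, at 0.40 for MSTN.

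The LF pigs differed more among themselves than the HF pigs for 9 of the 10 genes, counted by the ratio of highest to lowest value. This ratio ran from 1.67 for GADD45A to 5.35 for FBXO32 in LF and from 1.22 for FOXO4 to 2.58 for MSTN in HF. Only MSTN had the larger ratio in HF. Over all genes tested, the range of log2(FPKM + 0.1) was wider in LF for 50.6%. LF02 was the lowest LF pig for 8 of the 10 genes, and LF03 the highest LF pig for 8. Over all genes tested, LF02 was the lowest LF pig for 45.1% and LF03 the highest for 44.3%. HF01 was likewise the lowest HF pig for 8 of 10 genes, beside 49.1% of all genes. The pigs' placing was thus shared by most of the 10 genes and, to a lesser share, by the muscle's genes at large.

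LF02 and LF03 moved these values in opposite directions. Without LF02, 9 of the 10 genes were negative, at a median log2 fold change of -0.58 beside -0.06 for all genes tested. TRIM63, FOXO1, GADD45A and CDKN1A then had an unadjusted p under 0.05, against 16.6% of genes lower, and 6 genes did not overlap, against 27.7%. Without LF03, 5 of 10 were negative with a median of 0.02, and only TRIM63 had an unadjusted p under 0.05, against 8.86% of genes lower.

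**Figure D3:**
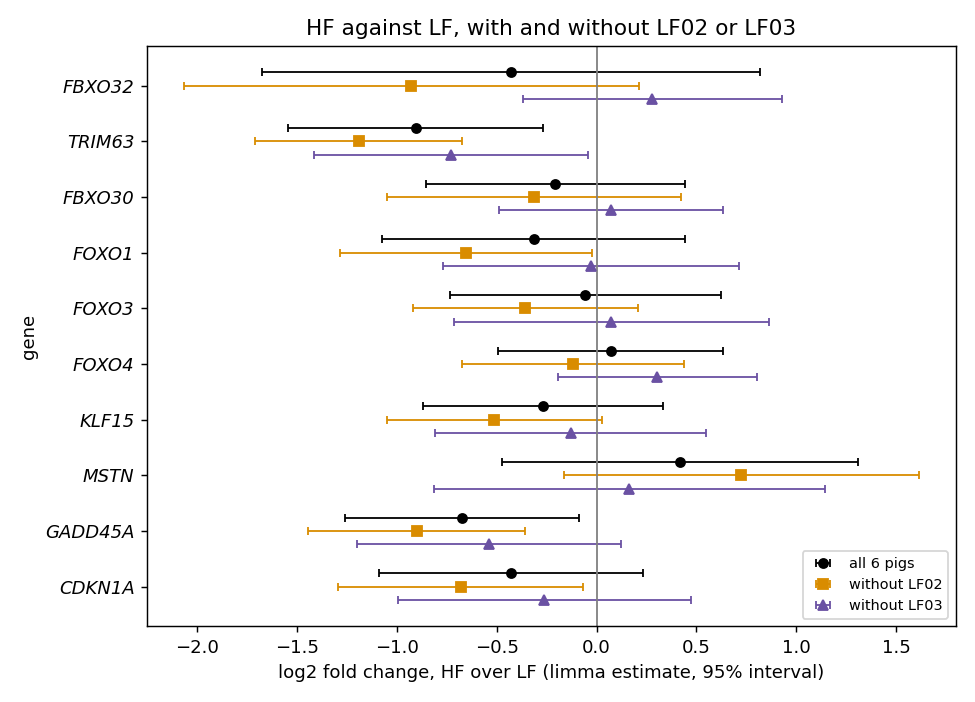
Log2 fold change (horizontal axis, HF over LF, limma estimate with its 95% interval) of each gene from all 6 pigs (black circles), without LF02 (orange squares) and without LF03 (purple triangles). The interval of TRIM63 lies below 0 in all 3 fits, and FBXO32 lies at -0.43, -0.93 and 0.28.

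Likeness between genes was measured as the mean absolute difference of their log2 values over the 6 pigs, each centred on its own mean. Within the 10 genes, FOXO3 and KLF15 were nearest to each other (0.11), followed by FOXO1 and CDKN1A (0.13). TRIM63 was nearest to GADD45A (0.21), and FBXO32 to FOXO1 (0.30). MSTN was far from all, at 0.49 from its nearest, FBXO30. Among 9173 other genes with a symbol and at least 1 FPKM, the nearest to TRIM63 were IKBKG, a regulatory subunit of the NF-kappa B kinase (0.07), RNF181, a RING ligase (0.08), and DAZAP1, an RNA-binding protein (0.08), beside a median distance of 0.51. For FBXO32 they were RAB21, an endosomal GTPase (0.16), TPX2, a spindle protein (0.17), and SIK1, a salt-inducible kinase (0.23), beside a median of 0.60. Each of these 3 had its highest value in LF03, at 62.4, 5.22 and 5.77 FPKM. With 6 pigs and so many genes, close patterns are easily found, and nothing about shared control follows.

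Other ubiquitin ligases of muscle were spread to both sides. Of 18 tested, 0 were called, and an unadjusted p under 0.05 was reached by 2 lower and 1 higher in HF. The median log2 fold change was -0.10. KLHL41, a kelch adaptor that steadies the sarcomere, averaged 1238 ± 131 FPKM in HF pigs and 1995 ± 295 FPKM in LF pigs (SD, n = 3 each; log2 fold change -0.68; limma, adjusted p = 0.119). TRIM54 (MuRF3), a relative of TRIM63, had 63.5, 33.8 and 42.0 FPKM in HF01 to HF03, against 74.2, 63.9 and 128 FPKM in LF01 to LF03. Its log2 fold change was -0.91 (limma, adjusted p = 0.143), close to that of TRIM63, and its groups did not overlap. FBXO21, an F-box protein of denervation atrophy in mouse, averaged 7.80 ± 0.888 FPKM in HF and 5.92 ± 0.646 in LF (limma, adjusted p = 0.237).

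The SCF core, the scaffold on which F-box proteins such as FBXO32 and FBXO30 work, was lower in HF for 6 of 7 genes at an unadjusted p under 0.05, with a median of -0.61 and 0 called. All 6 were without overlap between groups. Over all genes tested 13.8% were lower at that p and 17.1% lower without overlap, and over the genes averaging at least 5 FPKM, among which these 6 lie, 22.7% and 27.0%. NEDD8, the ubiquitin-like tag that activates cullins, averaged 19.4 ± 1.07 FPKM in HF pigs and 31.9 ± 2.66 FPKM in LF pigs (SD, n = 3 each; log2 fold change -0.71; limma, adjusted p = 0.0899). RBX1, the RING subunit, averaged 94.8 ± 11.07 FPKM in HF and 147 ± 12.0 in LF (limma, adjusted p = 0.111). CUL1, the cullin scaffold, averaged 18.0 ± 1.88 FPKM in HF and 27.4 ± 2.33 in LF (limma, adjusted p = 0.112). Without LF03, 3 of the 7 were lower at an unadjusted p under 0.05, beside 8.86% of all genes, and without LF02, 4 of 7, beside 16.6%. LF02 was in the upper group for these genes, unlike its place for FBXO32.

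Upstream of FOXO, 14 of 20 genes of insulin, AKT and acetylation control were positive, beside 48.1% of all genes tested, at a median log2 fold change of 0.18. That background depends on level, with 31.9% positive among genes averaging at least 5 FPKM and more among lower genes, and this list holds both. By limma 0 were called, and 3 were higher and 0 lower at an unadjusted p under 0.05, beside 11.0% and 13.8% of all genes. Without LF02, 4 were higher and 2 lower, beside 11.5% and 16.6% of all genes. CREBBP and EP300, acetyltransferases that bind FOXO factors, were at 4.06 ± 0.505 and 5.82 ± 0.535 FPKM in HF, against 2.23 ± 0.207 and 3.33 ± 0.597 in LF (SD, n = 3 each; limma, adjusted p = 0.0893 and 0.0899). SGK1, a kinase that phosphorylates FOXO3, had 12.5, 12.2 and 15.7 FPKM in HF01 to HF03, against 3.46, 8.95 and 7.77 FPKM in LF01 to LF03. Its groups did not overlap, with a log2 fold change of 1.09 (limma, adjusted p = 0.117).

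Genes downstream of FOXO other than the 10 had a median of -0.31 over 24 tested, with 0 called. At an unadjusted p under 0.05, 9 were lower and 1 higher in HF, or 37.5% lower beside 13.8% of all genes. Most of the lower genes averaged at least 5 FPKM, and 22.7% of all genes at that level were lower. Without LF02, 11 of 23 were lower, beside 16.6% of all genes, and without LF03 5 of 24, beside 8.86%. PDK4 and CAT are candidate genes of the study itself, chosen on these pigs, and are not independent evidence of direction. The study's own test called PDK4 and CAT lower in HF. Its qRT-PCR in LD and backfat of a larger set of pigs gave the same direction, whereas it reported CAT protein as higher in HF. PDK4, the kinase that turns off pyruvate dehydrogenase, had 21.6, 3.76 and 37.4 FPKM in HF01 to HF03, against 576, 134 and 220 FPKM in LF01 to LF03 (log2 fold change -4.13; limma, adjusted p = 0.0808). ANGPTL4, an inhibitor of lipoprotein lipase, had 2.32, 1.51 and 1.55 FPKM in HF01 to HF03, against 12.7, 4.58 and 8.11 FPKM in LF01 to LF03 (log2 fold change -2.09; limma, adjusted p = 0.0738). BNIP3, a receptor for the removal of mitochondria, averaged 126 ± 16.8 FPKM in HF and 302 ± 78.7 in LF (log2 fold change -1.24; limma, adjusted p = 0.0808). In these 3 genes LF02 stayed above every HF pig, and none was called. Without LF02, 4 genes of the list were called lower, these 3 and CAT, catalase, named after its values were seen (limma, adjusted p from 0.0277 for ANGPTL4 to 0.0497 for PDK4), and without LF03 0 were called. Over all genes, 124 of 11157 tested were called lower without LF02, and 2 of 11179 without LF03.

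In the myostatin and activin pathway 16 of 21 genes were positive, beside 48.1% of all genes tested, with a median of 0.17 (0.03 without LF02). Most of this list averaged under 5 FPKM. Since 31.9% of genes at or above that level were positive, the background share among lower genes is above 48.1%. By limma 0 were called, with 3 higher and 0 lower at an unadjusted p under 0.05, beside 11.0% and 13.8% of all genes. Without LF02, 1 was higher, beside 11.5% of all genes. SMAD2, which carries the signal of MSTN to the nucleus, averaged 3.82 ± 0.548 FPKM in HF pigs and 2.57 ± 0.341 FPKM in LF pigs (SD, n = 3 each; limma, adjusted p = 0.148). ACVR2B, the main MSTN receptor, averaged 2.98 ± 0.964 FPKM in HF and 1.76 ± 0.321 in LF (limma, adjusted p = 0.171). SKI, which holds SMAD activity back, averaged 4.88 ± 0.446 FPKM in HF and 3.36 ± 0.220 in LF (limma, adjusted p = 0.131).

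Of 14 glucocorticoid-responsive genes and partners of KLF15, 0 were called, and the median was -0.27 (0.06 without LF02). At an unadjusted p under 0.05, 1 was lower and 0 were higher, beside 13.8% and 11.0% of all genes. FKBP5, a chaperone strongly induced by glucocorticoids, had 25.4, 64.0 and 35.5 FPKM in HF01 to HF03, against 116, 41.7 and 166 FPKM in LF01 to LF03. LF01 and LF03 were above every HF pig and LF02 was not, as for FOXO1, KLF15 and CDKN1A, and the log2 fold change was -1.26 (limma, adjusted p = 0.183). GLUL, glutamine synthetase, had 109, 99.3 and 240 FPKM in HF01 to HF03, against 314, 144 and 680 FPKM in LF01 to LF03, placed in the same way (limma, adjusted p = 0.228). PER1, a clock gene, averaged 12.3 ± 3.14 FPKM in HF pigs and 17.6 ± 4.16 FPKM in LF pigs (SD, n = 3 each; limma, adjusted p = 0.252).

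For regulators and relatives of GADD45A and CDKN1A, 0 of 14 were called, and the median was 0.06 (-0.17 without LF02). At an unadjusted p under 0.05, 2 were lower and 0 higher, beside 13.8% and 11.0% of all genes. Without LF02, when 102 of 11157 genes were called higher, 1 gene of the list was called, and it was higher in HF. This was ASNS, asparagine synthetase, named here after its values were seen, at 18.9, 24.9 and 8.66 FPKM in HF01 to HF03, against 3.06, 27.3 and 1.80 FPKM in LF01 to LF03. Its log2 fold change was 1.55 in all 6 pigs (limma, adjusted p = 0.315) and 2.71 without LF02, the pig with its highest value (limma, adjusted p = 0.0470). GADD45B, a relative of GADD45A, had 2.15, 5.93 and 2.43 FPKM in HF01 to HF03, against 5.43, 5.90 and 6.74 FPKM in LF01 to LF03 (log2 fold change -0.91; limma, adjusted p = 0.169). GADD45G averaged 10.3 ± 4.11 FPKM in HF and 21.1 ± 11.5 in LF (limma, adjusted p = 0.301). ATF4, a stress factor that switches on GADD45A in mouse muscle, had 1361, 1253 and 1203 FPKM in HF01 to HF03, against 2668, 1398 and 2154 FPKM in LF01 to LF03. Its groups did not overlap, with LF02 just above HF01 as for TRIM63 (log2 fold change -0.66; limma, adjusted p = 0.182).

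Among 10 cell cycle partners of CDKN1A, 0 were called, with a median of -0.05. At an unadjusted p under 0.05, 2 were higher and 0 lower, beside 11.0% and 13.8% of all genes. Without LF02 the median was -0.22, with 2 higher and 2 lower, beside 11.5% and 16.6%. Without LF03 the median was 0.02, with 2 higher and 0 lower, beside 8.21% and 8.86%. The 2 higher genes in all 6 pigs were CCND1 and CCND2. CCND2 averaged only 0.858 FPKM over the pigs (log2 fold change 0.999; limma, adjusted p = 0.106). CCND1 (cyclin D1) averaged 1.44 ± 0.295 FPKM in HF pigs and 0.733 ± 0.222 FPKM in LF pigs (SD, n = 3 each; limma, adjusted p = 0.131). CDK4, its kinase, averaged 2.66 ± 0.0909 FPKM in HF and 3.46 ± 0.645 in LF (limma, adjusted p = 0.314), and PCNA, the replication clamp that CDKN1A binds, averaged 9.33 ± 0.885 FPKM in HF and 12.9 ± 4.05 in LF (limma, adjusted p = 0.321).

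**Figure D4:**
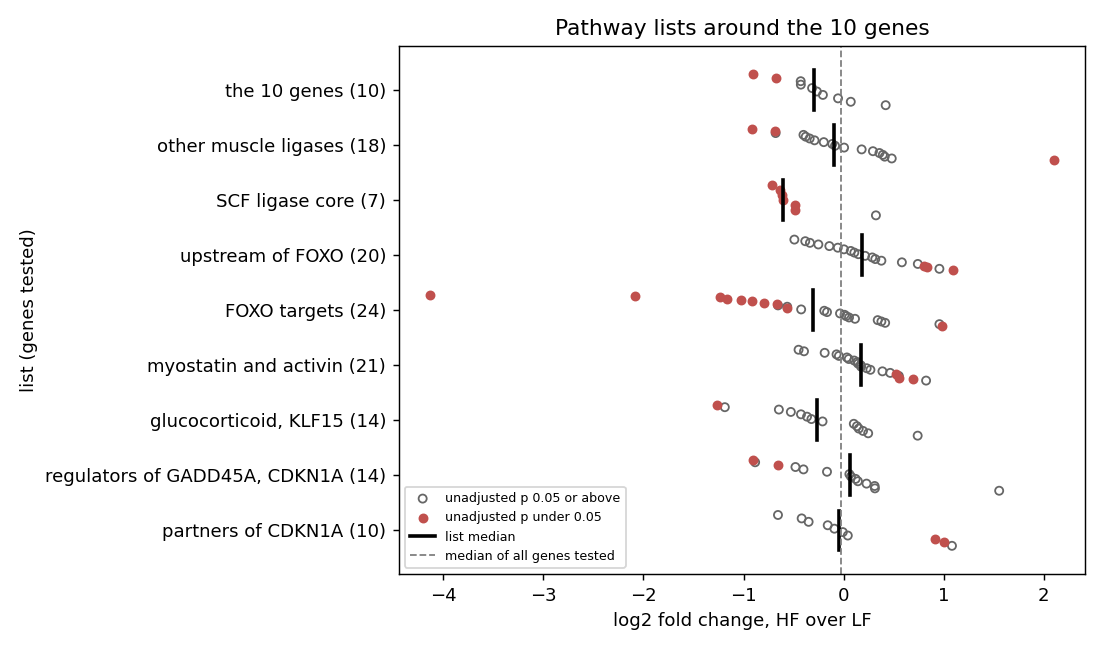
Log2 fold change (horizontal axis, HF over LF) of every tested gene in the 10 described here and in 8 pathway lists around them (rows, genes tested in parentheses), filled where the unadjusted p is under 0.05. Black bars are list medians, from -0.61 for the SCF core to 0.18 upstream of FOXO, and the dashed line is the median of all genes tested, -0.03.

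Markers of other cell types and fibre types were compared beside these values, and their part in the results was not tested. Fast fibre markers (9 of 10 listed) summed to 24796 to 40595 FPKM in HF and 33602 to 59628 FPKM in LF, and slow fibre markers (8 of 8) to 1306 to 10940 FPKM in HF and 1885 to 7397 FPKM in LF. LF03, with the highest FBXO32, had the highest slow fibre sum of the LF pigs, 7397 FPKM. The highest sum of the HF pigs was 10940 FPKM in HF03, where FBXO32 was 48.1 FPKM. Whether fibre type bears on FBXO32 was not tested. Smooth muscle and pericyte markers (9 of 9) ran from 192 to 401 FPKM in HF and from 101 to 202 in LF, fibroblast markers (8 of 8) from 277 to 698 in HF and from 264 to 322 in LF, and Schwann cell markers (5 of 6) from 45.5 to 101 in HF and from 30.8 to 38.0 in LF. Adipocyte markers (9 of 9, RETN at 0 in some pigs) ran from 119 to 258 FPKM in HF and from 110 to 215 in LF, endothelial markers (8 of 9) from 78.4 to 102 in HF and from 49.5 to 87.7 in LF, and macrophage markers (9 of 9) from 10.9 to 38.9 in HF and from 15.7 to 19.2 in LF. FABP4 and CFD made up most of the adipocyte sums. Taken singly, 5 of 6 tested adipocyte markers were positive and 1, CFD, negative, at a median log2 fold change of 0.74. All 6 overlapped between groups and 0 were called. Satellite cell markers (6 of 6) ran from 27.7 to 32.3 FPKM in HF and from 25.4 to 29.4 in LF. Sums can hide single genes. At an unadjusted p under 0.05, 2 of these 6 were higher and 1 lower in HF. At that p, 6 of 9 smooth muscle and pericyte, 4 of 8 fibroblast and 3 of 4 tested Schwann cell markers were higher and 0 lower. Of 9 fast fibre markers 1 was higher, and no marker of the other lists reached that p. Over all genes 11.0% were higher and 13.8% lower, and limma called 0 of the markers. Red blood cell markers (5 of 6, SLC4A1 and AHSP at 0 in some pigs) ran from 65.9 to 117 FPKM in HF and from 26.8 to 93.7 in LF. Immediate early and stress genes (8 of 9), which also respond to handling, ran from 80.0 to 224 FPKM in HF and from 55.6 to 145 in LF. Of these, JUN averaged 45.3 ± 14.5 FPKM in HF and 29.6 ± 6.26 in LF, EGR1 at 7.70 ± 2.91 FPKM in HF and 4.73 ± 4.41 in LF, and IER2 at 3.78 ± 1.76 FPKM in HF pigs and 2.55 ± 1.14 FPKM in LF pigs (SD, n = 3 each; limma, adjusted p = 0.230, 0.332 and 0.408).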

How the data were processed

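LD muscle RNA of 6 pigs (3 HF, 3 LF, 1 library per pig) was sequenced by the authors with paired reads, cleaned with fastp, aligned with HISAT2 to Sscrofa11.1, and the deposited FPKM values were computed by the authors with cufflinks. FPKM does not keep depth, so precision rests on the spread between pigs. Columns of the authors' own DESeq2 comparison stand in the same table and were not used, and 0 columns of pigs were left unmapped. A second sheet repeats the same FPKM values for the 16596 genes above 0 in at least 1 pig.

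Symbols were those of the table, with blanks filled from a gene name table by gene ID. Log2(FPKM + 0.1) was fitted with limma (version 3.58.1, R 4.3.3; eBayes with a mean trend, two-sided, no covariate) for genes averaging 0.5 FPKM or more, with Benjamini-Hochberg adjustment over all 11136 genes. The fit was tested on simulated data. The study's own test needs counts per pig, which were not used here. Alternatives were pseudocounts of 1 and 0.01, a minimum of 0 or 5 FPKM for the mean, median-of-ratios scaling, quantile normalisation, no trend, a robust fit, the replicate number as a block, an adjusted p under 0.10 and each pig left out. Counts of pathway genes past either threshold without LF02 or LF03 were added after seeing the data. The 10 genes and the lists were chosen with earlier results of these data known. From each pathway list, genes called, otherwise up to 3 with the smallest p and a mean of at least 1 FPKM, were named. The genes most like FBXO32 and TRIM63 were the 3 nearest of those with a symbol and that mean. FBXL22 and CCND2, whose means are lower, were named after their values were seen. PDK4 belongs to the study's candidates. Gene positions are those of the deposited table. Promoter and protein sequences were not used here.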

Additional observations from a re-analysis of the deposited data

How the results depend on the processing

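Over 16 alternatives (15 for FOXO1, whose mean is under 5 FPKM), TRIM63, GADD45A, CDKN1A, KLF15 and FOXO1 stayed negative and MSTN positive, with ranges without single pigs of -0.65 to -0.03 for FOXO1, -0.51 to -0.10 for KLF15, -0.68 to -0.26 for CDKN1A, -0.90 to -0.54 for GADD45A and 0.08 to 0.76 for MSTN. The changed minimum, no trend, the robust fit, the replicate block and the 0.10 threshold leave the fold change itself as it was. Direction could turn only under the other pseudocounts, the rescalings and the fits without single pigs. TRIM63 was called in 1 of the 16 alternatives, without LF02 (-1.19; range without single pigs -1.19 to -0.73), with a limma adjusted p from 0.0493 to 0.290 over all alternatives. Direction turned without single pigs for FBXO32 (range -0.93 to 0.28), FBXO30 (-0.38 to 0.072), FOXO3 (-0.36 to 0.13) and FOXO4 (-0.12 to 0.30), and under quantile normalisation for FBXO30 (0.064) and FOXO3 (0.091), and the cause was not tested. Over all genes, limma called 4 higher and 4 lower, and with the alternatives 2 higher at a pseudocount of 1 or a mean of at least 5 FPKM, 0 higher and 1 lower with no filter, 12 and 8 with median-of-ratios scaling, 1 and 1 with no trend, 9 higher with the robust fit, and 315 and 389 at an adjusted p under 0.10. Without single pigs these counts ran from 0 to 102 higher and 1 to 124 lower, both highest without LF02. Median-of-ratios scaling gave 2 of the 10 genes without overlap, TRIM63 and GADD45A, and quantile normalisation gave GADD45A alone, since TRIM63 then overlapped. Without single pigs, 0 to 1 of the 10 were called lower, 1 to 4 were lower at an unadjusted p under 0.05, 1 to 6 were lower and 0 to 1 higher without overlap.

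Without LF02 or LF03, the counts at an unadjusted p under 0.05 ran from 1 to 2 higher and 5 to 11 lower for FOXO targets, 3 to 4 lower for the SCF core, 1 to 2 lower for other ligases, 0 to 2 lower upstream of FOXO, 1 to 2 higher for the myostatin pathway, 0 to 1 higher and 0 to 3 lower for the glucocorticoid list, 0 to 1 higher and 1 lower for regulators of GADD45A and CDKN1A, and 0 to 2 lower for partners of CDKN1A. Over all genes at that p, 11.5% were higher and 16.6% lower without LF02, and 8.21% and 8.86% without LF03. Without LF02, 4 FOXO targets were called lower and 1 regulator of GADD45A and CDKN1A higher, beside 124 lower and 102 higher over all genes. The labels give no pairing of the pigs, though the study writes of pairs with divergent lipid deposition and of siblings. Deviations from the group means correlated at -0.04, 0.09 and 0.02 between same-numbered pigs, and at -0.09 to 0.08 between the others. With 3 pigs per group, these correlations cannot show whether the numbers pair the pigs. The replicate block gave 8 genes lower over all genes and changed no call of the 10. An FPKM table without counts limits what can be said of low genes, and 3 pigs per group limit the rest.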
